A study of Danio rerio with 8 samples.

Results

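The pericyte and smooth muscle genes examined here are 10 markers of mural cells, the cells that wrap blood vessels, out of 32520 gene rows counted in the injured zebrafish ventricle. They were chosen by name, with earlier results of these data known: cspg4, pdgfrb, notch3, cnn1a, cnn1b, tagln, acta2, myh11a, rgs5a and mylka. The names notch3b, cnn1a, cnn1b, myh11a, rgs5a and mylka were not in the gene table. These genes were taken under their names without the suffix, notch3b as NOTCH3. Rows sharing a symbol, such as CNN1 for cnn1a and cnn1b, were told apart by chromosome. All 10 were matched to a gene row, 9 passed the filter on low counts, and cnn1a did not. Levels came from RNA sequencing of adult cardiac ventricles 7 days after cryoinjury, in which a patch of the ventricle is killed by freezing. Homozygous cox7a1-/- mutants were compared with their wildtype siblings, with 4 pools per genotype and 5 ventricles in each pool. Both genotypes received the injury, and uninjured hearts were not analysed here. The labels give no age, strain or mutant allele, and cox7a1 encodes a subunit of cytochrome c oxidase in the mitochondrial respiratory chain.

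Mural cells come as pericytes, which sit on capillaries, and as vascular smooth muscle cells, which ring larger vessels with a contractile layer. Endothelial cells release PDGF-B, which acts on the receptor Pdgfrb of mural cells and draws them to the vessel wall, and the receptor Notch3 helps to keep them mature. Contraction of smooth muscle is started when calcium and calmodulin activate myosin light chain kinase, which lets the myosin Myh11 pull on smooth muscle actin. In the zebrafish heart these genes mark coronary mural cells and the smooth muscle of the outflow tract, which adjoins the ventricle, and acta2 and tagln are also used as markers of activated fibroblasts after injury.

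Total counts ran from 41556101 to 69057989 per pool. The targeted transcript cox7a1 stood at 210 to 286 CPM (read counts divided by the TMM-scaled library size) in wildtype pools and at 59.5, 113, 88.4 and 194 CPM in mutant replicates 1 to 4, so replicate 4 kept the most of it. Its log2 fold change of -1.11 ± 0.295 (SE) did not pass the test (edgeR adjusted p = 0.0776). Mutant replicate 4 also stood apart in gene length, with long genes less short genes at -0.21 log2 units against 0.01 to 0.20 in the other mutant pools and -0.09 to 0.05 in wildtype. The heart muscle marker myl7 averaged 11712 CPM in wildtype and 11136 CPM in mutant pools. Haemoglobin genes took 0.138% to 0.198% of counts in wildtype and 0.116% to 0.243% in mutant pools, the most in mutant replicate 3. In pooled tissue, fewer cells of a type and less RNA per cell cannot be told apart.

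Of the 9 tested members, 1 was called higher in mutants and 0 lower by edgeR at an adjusted p under 0.05. Over all 17949 tested genes, 1.14% were called higher and 0.88% lower, 2.02% in all, and a count of 1 in 9 is too small to set against these shares. The called member was cspg4. The pools of the genotypes did not overlap for 2 members, cspg4 and cnn1b, both higher in mutants, and 0 were lower without overlap. Among all tested genes 6.27% were higher and 5.48% lower without overlap. An unadjusted p under 0.05 was reached by the same 2 members, against 18% of all tested genes. The median log2 fold change of the 9 was 0.08, and that of all tested genes was 0.00.

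**Figure D1:**
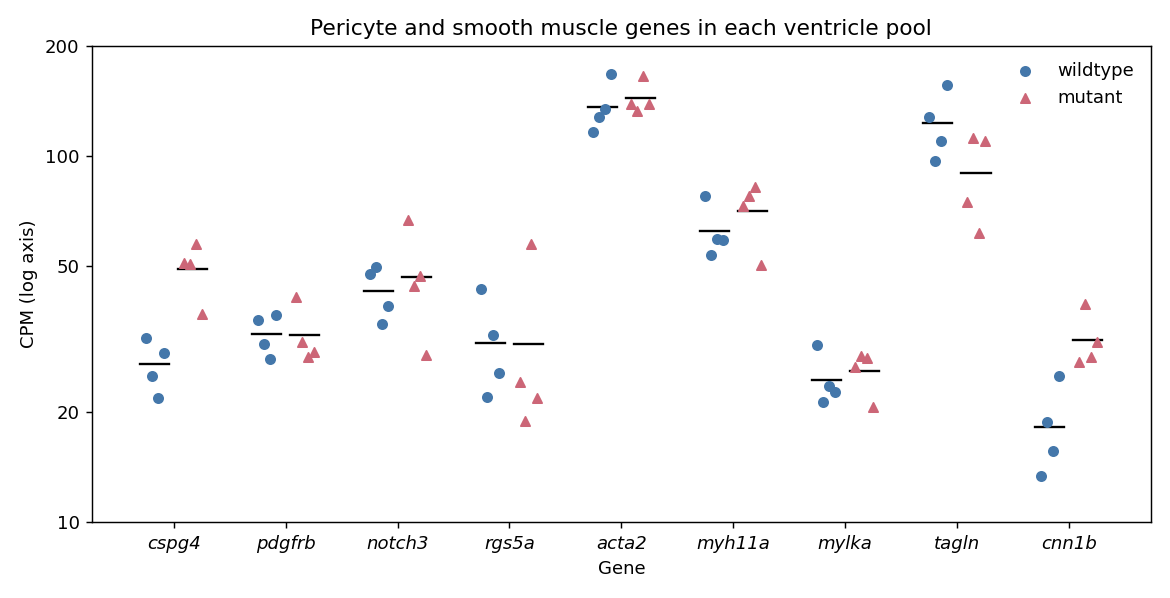
CPM on a log axis for the 9 tested genes, with 1 circle per wildtype pool, 1 triangle per mutant pool and a bar at the mean of 4 pools. The circles and triangles separate for cspg4 and for cnn1b, and they overlap for the other 7 genes.

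Cspg4, the proteoglycan NG2 on the surface of pericytes, rose in mutant ventricles. The gene (ENSDARG00000078227, GRCz11 chromosome 25, 6507141 to 6629281, minus strand) held 31.9, 25.1, 21.9 and 29.1 CPM in wildtype replicates 1 to 4. In mutant replicates 1 to 4 it held 51.2, 50.6, 57.4 and 37.1 CPM. Every mutant pool was above every wildtype pool, and mutant replicate 4 came nearest to wildtype. The mean went from 27.0 ± 4.38 to 49.1 ± 8.57 CPM (SD, n = 4 each), a log2 fold change of 0.86 ± 0.157 (SE; edgeR adjusted p = 0.0238), or 1.82-fold with a 95% interval of 1.43 to 2.31. The direction held in each alternative, but the call did not. It was lost without wildtype replicate 2 (adjusted p = 0.0768), wildtype replicate 3 (0.0821), mutant replicate 1 (0.0675), mutant replicate 2 (0.0559) or mutant replicate 3 (0.0784), with log2 fold changes of 0.77 to 0.98 over the 8 pools left out in turn. Without mutant replicate 4 it was 0.98 (adjusted p = 0.0133), and with a trend on gene length removed from all 8 pools it was 0.81 (0.0137). It was also lost with libraries scaled by their totals alone (adjusted p = 0.065).

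Cspg4 did not move with the pericyte receptor pdgfrb. Pdgfrb (ENSDARG00000100897, chromosome 14, 3186485 to 3268155, minus strand), the receptor for PDGF-B, held 35.8, 30.7, 27.9 and 36.7 CPM in wildtype pools and 41.3, 31.1, 28.3 and 29.2 CPM in mutant pools. The ranges overlapped almost fully, and the log2 fold change was -0.01 ± 0.145 (SE; edgeR adjusted p = 0.976), with a 95% interval of 0.794 to 1.24-fold. The ratio of cspg4 to pdgfrb within a pool does not depend on how libraries are scaled. It was 0.891, 0.817, 0.786 and 0.792 in wildtype and 1.24, 1.63, 2.03 and 1.27 in mutant pools. The wildtype pools lay close together at 0.821 ± 0.048 (SD, n = 4), and the mutant pools were higher and more spread at 1.54 ± 0.371. This pair was chosen after its values were seen, so no test is given.

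**Figure D2:**
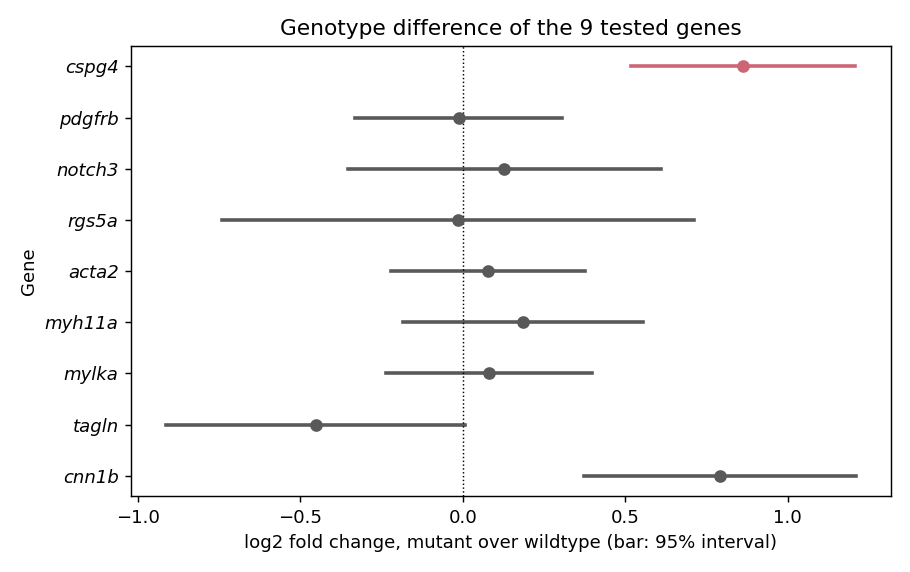
Log2 fold change of the 9 tested genes (points) with 95% intervals (bars), mutant over wildtype, the called gene in red and the others in grey. The intervals of cspg4 and cnn1b lie above 0, that of tagln reaches from -0.91 to 0.01, and that of rgs5a is the widest, from -0.74 to 0.71.

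Markers of other cell types were set beside the rise of cspg4. Cells of the nerve sheath and the neural crest lineage can also carry this proteoglycan. The summed level of 8 such markers was 14.3 to 18.5 CPM in wildtype and 11.7 to 20.4 CPM in mutant pools, with 0 of 7 tested genes called. Most of that sum came from mbpb (10.6 and 8.12 CPM in wildtype and mutant pools). Log2 fold changes were positive for 3 and negative for 4 of the tested genes, the largest that of s100b (1.02 ± 0.49, SE). The epicardium list of 9 genes, markers of the outer cell layer of the heart, summed to 1088 to 1283 CPM in wildtype and 1368 to 1498 CPM in mutant pools, without overlap. Only 4 of its 9 genes had positive log2 fold changes, and none was called. Most of the sum came from podxl (465 and 527 CPM in wildtype and mutant pools), which encodes podocalyxin, and krt18a.1, a keratin (372 and 537 CPM). Elnb, an elastin of outflow tract smooth muscle, held 99.7, 49.4, 37.0 and 82.8 CPM in wildtype and 106, 101, 97.6 and 52.7 CPM in mutant pools. Within wildtype the order of pools was the same for elnb as for cspg4. Among mutant replicates 1 to 3 it was not, since replicate 3 was the highest of these for cspg4 and the lowest for elnb. In both genes mutant replicate 4 was the lowest mutant pool. That pool was also the lowest mutant pool for notch3, myh11a and mylka, and only 1 of 9 tested members lay above its mutant mean there. Elnb was chosen after its values were seen. The log2 fold change of elnb was 0.41 ± 0.3 (SE; edgeR adjusted p = 0.518). The outflow list of 7 genes summed to 216 to 339 CPM in wildtype and 272 to 388 CPM in mutant pools. Of its 7 genes, 6 were positive. The smallest p in the list belonged to ltbp1 (0.50 ± 0.134, SE; edgeR adjusted p = 0.0781) and mfap5 (-0.33 ± 0.118; 0.175), which went in opposite directions. The part of these markers in the rise of cspg4 was not tested.

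The receptor Notch3 varied widely among mutants. The gene notch3 (ENSDARG00000052139, chromosome 3, 53526025 to 53559581, minus strand) held 47.6, 49.8, 34.8 and 38.9 CPM in wildtype pools and 67.1, 44.3, 46.9 and 28.5 CPM in mutant pools. Mutant pools included both the highest and the lowest of the 8 values. The log2 fold change was 0.13 ± 0.22 (SE; edgeR adjusted p = 0.814), and the 95% interval ran from 0.782 to 1.53-fold. With 11783 exonic bases it is the longest member, and the low pool was the one with the lowest level of long genes, mutant replicate 4. Without that pool the log2 fold change was 0.30, and without mutant replicate 1 it was -0.11. With a trend on gene length removed from all 8 pools it was 0.0018, and with that trend and mutant replicate 4 both removed 0.13. None of these was called.

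Among the other genes of these signalling routes, 0 of 7 tested PDGF genes and 0 of 14 tested Notch genes were called. Over all tested genes 2.02% were called, and these lists are too small to set against this share. Pdgfbb, 1 of the pair of zebrafish genes for the ligand PDGF-B, was at 39.4 ± 4.77 CPM in wildtype and 38.7 ± 8.82 in mutant pools (SD, n = 4), and the other, pdgfba, at 9.57 ± 2.59 and 9.53 ± 2.53. The smallest p in the PDGF list belonged to pdgfrl, a receptor-like gene (log2 fold change 0.25 ± 0.118, SE), and to pdgfc, a further ligand (-0.36 ± 0.221). In the Notch list they belonged to the ligand genes dlc (-0.34 ± 0.145) and jag2b (0.31 ± 0.134). Median log2 fold changes were -0.03 for the PDGF list and -0.15 for the Notch list. In the Notch list, heyl, a target gene, had no count in any pool.

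The wider list of pericyte markers had more negative than positive log2 fold changes, and none was called. Of 16 tested genes, 0 were called, against 2.02% of all tested genes, a share too low to compare with so few. Log2 fold changes were negative for 11 and positive for 5, against 50.4% positive among all tested genes, and the median was -0.20. The largest positive values were those of foxc1b (0.27 ± 0.162, SE) and rgs5b (0.25 ± 0.246). Mcamb, the marker with the highest CPM of the list, was at 533 ± 40.6 CPM in wildtype and 527 ± 52.8 CPM in mutant pools (SD, n = 4). Abcc9, a subunit of the potassium channels that set pericyte excitability, held 311, 352, 406 and 350 CPM in wildtype and 264, 298, 310 and 299 CPM in mutant pools. Each mutant pool was below each wildtype pool, by a small margin, and the log2 fold change of -0.28 ± 0.121 (SE) did not pass the test (edgeR adjusted p = 0.256). Abcc9 is also expressed in heart muscle in mammals. Cd248a, which encodes endosialin, a surface protein of pericytes and fibroblasts, went from 173 ± 38.3 to 113 ± 17.8 CPM (SD, n = 4; edgeR adjusted p = 0.0963), and the transcription factor gene tbx2b from 9.74 ± 3.16 to 6.34 ± 1.20 CPM (0.184). Kcnj8, the pore subunit that pairs with Abcc9, was low but detected in each pool (26 to 118 counts), at 1.79 ± 0.469 and 1.23 ± 0.48 CPM.

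Rgs5a, which encodes a regulator of G protein signalling used as a pericyte marker, had the widest spread of the tested members and no difference in mean. The gene (ENSDARG00000002644, chromosome 6, 35387367 to 35439406, minus strand) held 43.4, 22.0, 32.6 and 25.6 CPM in wildtype pools. It held 24.2, 19.0, 57.5 and 21.8 CPM in mutant pools. Mutant replicate 3 and wildtype replicate 1 were the highest of the 8. The log2 fold change was -0.01 ± 0.331 (SE; edgeR adjusted p = 0.99), with a 95% interval of 0.599 to 1.64-fold, and without mutant replicate 3 it was -0.51 (adjusted p = 0.34).

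The genes whose pattern over the 8 pools was most like that of rgs5a were genes of blood cells. Likeness was measured as the root mean square difference of log2 levels, each centred on its own mean, against 11798 named genes whose log2 CPM averaged 1 or more. The nearest genes share the high pools of rgs5a by this choice, and their values are a description. The nearest was RHAG, an ammonia channel of the red cell membrane, at 0.252 log2 units, followed by tubb1, a tubulin of platelets in mammals, at 0.297, and hemgn, a nuclear protein of red cell precursors, at 0.309. Hemgn held 25.4, 18.7, 17.8 and 23.3 CPM in wildtype and 24.6, 17.5, 39.6 and 19.1 CPM in mutant pools, and was highest in mutant replicate 3, as rgs5a was. Alas2, which starts heme synthesis in red cells, also peaked there at 277 CPM against 105 to 156 CPM in the other mutant pools. The adult globin gene hbaa1 was as high in mutant replicate 4 (1117 CPM) as in replicate 3 (1125 CPM), where rgs5a was not. Among mutant pools, cspg4 (57.4 CPM), acta2 (165 CPM) and myh11a (82.5 CPM) were also highest in replicate 3. Pdgfrb, notch3, cnn1b, tagln and mylka were not. The 6 erythrocyte markers summed to 621 to 1013 CPM in wildtype and 675 to 1826 CPM in mutant pools, with 6 of 6 positive log2 fold changes and 0 called. The part of blood cells in the level of rgs5a was not tested.

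**Figure D3:**
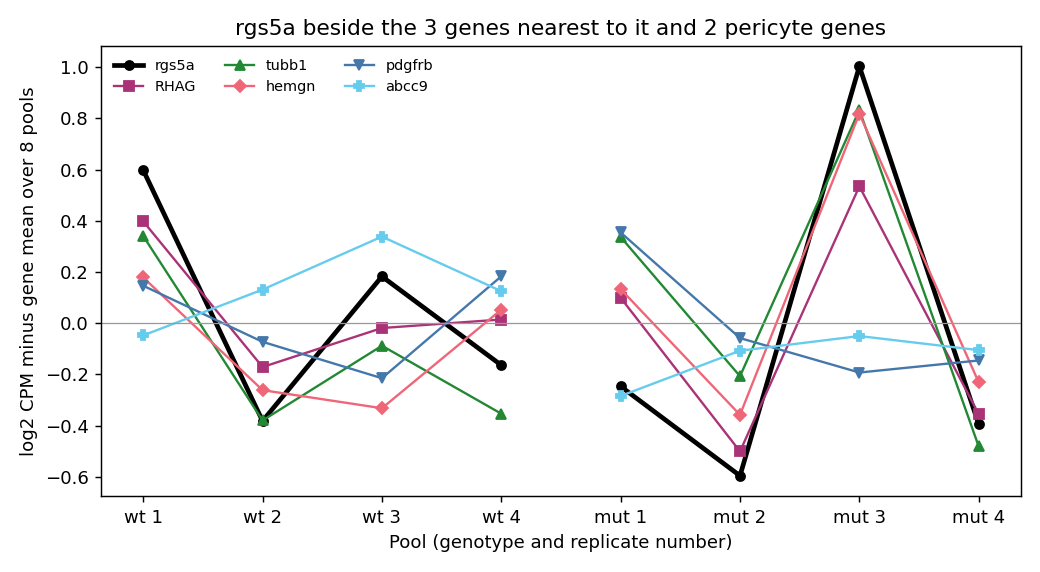
Log2 CPM less each gene's mean over 8 pools, by pool, for rgs5a (thick black line), its 3 nearest genes RHAG, tubb1 and hemgn, and the pericyte genes pdgfrb and abcc9; lines join pools of 1 genotype only to guide the eye. Over the 8 pools rgs5a, RHAG, tubb1 and hemgn are highest in mutant replicate 3, pdgfrb in mutant replicate 1 and abcc9 in wildtype replicate 3. Among mutant pools alone abcc9 is also highest in replicate 3, by a small margin. The 3 nearest genes were chosen for their likeness to rgs5a over these 8 pools, so they share its peak by choice.

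Other regulators of G protein signalling were compared as a family. Rgs2, which dampens signalling through the receptors of vasoconstrictors, fell from 8.81 ± 1.28 to 5.11 ± 0.835 CPM (SD, n = 4), a log2 fold change of -0.79 ± 0.167 (SE; edgeR adjusted p = 0.0402). It was the only call among 13 tested genes of the family, too few to set against the 2.02% called over all tested genes. The pools did not overlap, with wildtype at 10.2, 9.13, 8.82 and 7.11 CPM and mutant at 4.57, 6.28, 5.14 and 4.45 CPM. With 1 pool left out the call was kept 2 of 8 times, and the highest adjusted p, 0.112, came without mutant replicate 3. Rgs19 (0.78 ± 0.197, SE) did not pass the test (0.0683). Rgs5b, the paralog of rgs5a, was at 4.36 ± 1.57 and 5.19 ± 0.81 CPM, and rgs4, a close neighbour on chromosome 6 and itself used as a pericyte marker, at 8.07 ± 2.18 and 7.07 ± 1.26 CPM. The 13 tested genes of the family list, which leaves out rgs5a, rgs5b and rgs4, had 5 positive and 8 negative values with a median of -0.19.

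The core contractile genes acta2, myh11a and mylka did not pass the test. Acta2 (ENSDARG00000045180, chromosome 12, 17100021 to 17116481, plus strand), the smooth muscle actin, held 117, 128, 134 and 167 CPM in wildtype and 139, 132, 165 and 139 CPM in mutant pools. The genotypes overlapped, and the log2 fold change of 0.08 ± 0.136 (SE; edgeR adjusted p = 0.819) had a 95% interval of 0.857 to 1.3-fold. Actins are close to identical in sequence, and the cardiac actin gene actc1a stood at 8314 ± 944 CPM in wildtype and 11101 ± 1873 CPM in mutant pools (SD, n = 4), and how many reads were shared between them was not measured, so the level of acta2 is given as uncertain.

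Myh11a and mylka followed each other from pool to pool. Myh11a (ENSDARG00000009782, chromosome 6, 8499865 to 8580858, minus strand), the smooth muscle myosin heavy chain, held 77.7, 53.6, 59.3 and 59.1 CPM in wildtype and 73.1, 77.9, 82.5 and 50.3 CPM in mutant pools. Mylka (ENSDARG00000034801, chromosome 9, 4024250 to 4075620, minus strand), the kinase that switches on this myosin, held 30.4, 21.3, 23.6 and 22.7 CPM in wildtype and 26.5, 28.4, 28.2 and 20.7 CPM in mutant pools. In both genes wildtype replicate 1 and mutant replicates 1 to 3 were the high pools. Their centred log2 levels differed by 0.0842 units in root mean square, the smallest of the 36 pairs of tested members, and the next pair, pdgfrb and mylka, differed by 0.235. The ratio of mylka to myh11a was 0.393 ± 0.0063 in wildtype and 0.37 ± 0.0297 in mutant pools (SD, n = 4). Log2 fold changes were 0.18 ± 0.168 (SE) for myh11a and 0.08 ± 0.145 for mylka, with edgeR adjusted p-values of 0.619 and 0.821 and 95% intervals of 0.88 to 1.47-fold and 0.848 to 1.32-fold. Of the paralogs, myh11b had 0 to 37 counts per pool and was not tested, and mylkb stood at 2.61 CPM in wildtype and 1.98 CPM in mutant pools.

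Calponin, a brake on smooth muscle contraction that binds actin, had a higher level in mutants that fell just short of the threshold. Cnn1b (ENSDARG00000102398, chromosome 3, 14463941 to 14486959, plus strand) held 13.4, 18.8, 15.7 and 25.02 CPM in wildtype pools and 27.3, 39.4, 28.2 and 31.1 CPM in mutant pools. Each mutant pool was above each wildtype pool, with wildtype replicate 4 and mutant replicate 1 close to each other. The means were 18.2 ± 5.05 and 31.5 ± 5.47 CPM (SD, n = 4), and the log2 fold change was 0.79 ± 0.191 (SE; edgeR adjusted p = 0.0589), or 1.73-fold with a 95% interval of 1.3 to 2.31. It passed with DESeq2 (adjusted p = 0.00557), with limma-voom (0.0476), with no filter (0.035), with the length trend removed (0.0425) and without wildtype replicate 4 (0.0237), and missed in the other 7 cases with 1 pool left out (up to 0.17, without wildtype replicate 3).

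The second calponin gene was barely detected. Cnn1a (ENSDARG00000017193, chromosome 1, 52214895 to 52222989, minus strand) had 0 counts in 7 of 8 pools and 4 counts in mutant replicate 2. A count of 0 allows up to 3 counts, or 0.0484 to 0.0669 CPM depending on the pool, counting error only. The lowest cnn1b value was at least 200-fold higher than this limit. Smooth muscle calponin in these ventricles was therefore measured almost only through cnn1b.

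Transgelin, an actin-binding protein of smooth muscle related to calponin, lay lower in mutants on average but overlapped. Tagln (ENSDARG00000045408, chromosome 15, 543744 to 551181, minus strand) held 128, 96.8, 110 and 156 CPM in wildtype and 74.8, 112, 61.5 and 110 CPM in mutant pools. Mutant replicates 1 and 3 were below all wildtype pools, while replicates 2 and 4 fell within the wildtype range. The log2 fold change was -0.45 ± 0.211 (SE; edgeR adjusted p = 0.286), with a 95% interval of 0.531 to 1.01-fold. Tagln lies on the chromosome that also carries cox7a1. Their distance was not examined, and the part of this shared chromosome in the level of tagln was not tested. The gene table gives the symbol TAGLN to a second row, ENSDARG00000033466 on chromosome 5, which is not the tagln of RefSeq and held 99.2 CPM in wildtype and 121 CPM in mutant pools (0.29 ± 0.123 on the log2 scale; edgeR adjusted p = 0.248).

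The calponin and transgelin genes thus stood in different proportions in the genotypes. The ratio of cnn1b to tagln was 0.105, 0.194, 0.143 and 0.16 in wildtype and 0.366, 0.351, 0.459 and 0.282 in mutant pools. All mutant pools were above all wildtype pools, with means of 0.15 ± 0.0373 and 0.365 ± 0.0727 (SD, n = 4). The ratio of cnn1b to acta2 was 0.132 ± 0.0188 and 0.222 ± 0.0544, also without overlap, and that of tagln to acta2 was 0.902 ± 0.15 and 0.638 ± 0.222, with overlap. Both ratios to acta2 carry the uncertainty of its level, since reads shared with actc1a were not measured. These pairs were chosen after their values were seen and carry no test.

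**Figure D4:**
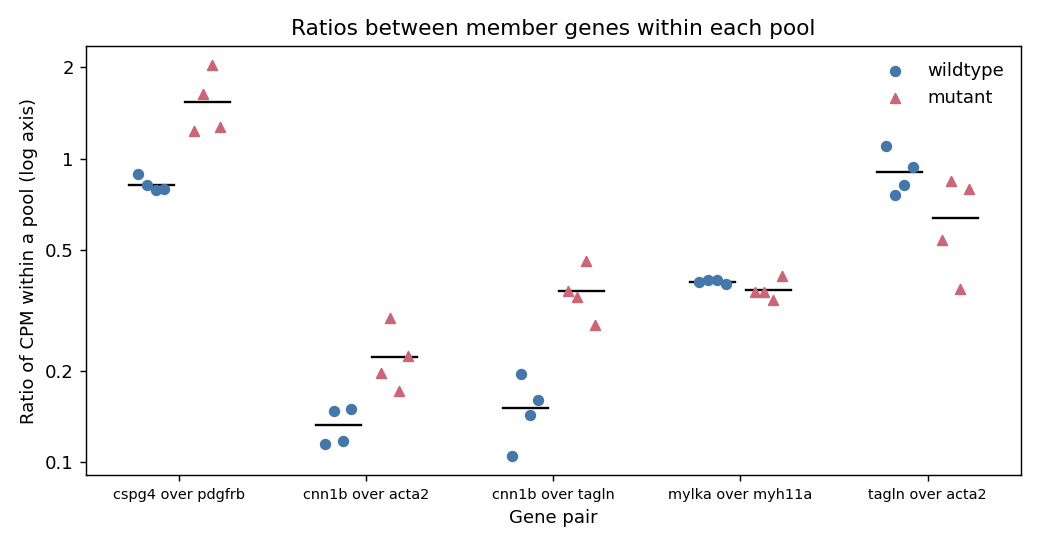
Ratio of the CPM values of paired member genes within each pool, on a log axis, with circles for wildtype pools, triangles for mutant pools and bars at the mean of 4 pools. The ratios of cspg4 to pdgfrb, cnn1b to acta2 and cnn1b to tagln do not overlap between genotypes, those of mylka to myh11a stay within 0.341 to 0.412, and those of tagln to acta2 overlap. The level of acta2 is uncertain.

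Per kilobase of exon, the members spanned a wide range of levels. In wildtype pools tagln was the most abundant at 149 ± 31.5 CPM per kilobase (SD, n = 4), followed by acta2 at 48.9 ± 7.79 and cnn1b at 16.9 ± 4.67. Tagln was above acta2 and acta2 above cnn1b in 4 of 4 pools of either genotype, without overlap. The place of acta2 in this order is as uncertain as its level. Rgs5a (9.49 ± 2.9), myh11a (8.78 ± 1.48) and mylka (7.08 ± 1.17) came next with overlapping ranges, and pdgfrb (4.32 ± 0.553), cspg4 (3.81 ± 0.618) and notch3 (3.63 ± 0.603) were lowest apart from cnn1a, also with overlapping ranges. The receptors and cspg4 thus stood near the middle of all tested genes per kilobase over the 8 pools, with notch3 above 55.2% and cspg4 above 63.5% of them, and tagln stood above 97.7%. In wildtype pools pdgfrb was above cspg4 in 4 of 4 pools, and in mutant pools cspg4 (6.92 ± 1.21) was above pdgfrb (4.28 ± 0.793) in 4 of 4. Cnn1b overlapped with rgs5a in wildtype pools. In mutant pools it reached 29.2 ± 5.06 CPM per kilobase and lay above rgs5a in each pool, also in replicate 3, where rgs5a was at 17.7.

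Likeness to cspg4 and cnn1b was measured over all 8 pools, so the genes nearest to them share their difference between genotypes by this choice, and their values are a description. Nearest to cspg4 were AP1G2, an adaptor subunit of vesicle transport (0.0692 log2 units), FNDC3B (0.118) and usp54a (0.119), of which FNDC3B stood at 16.9 CPM in wildtype and 31.4 CPM in mutant pools and usp54a at 93.7 and 157 CPM. Nearest to cnn1b were PTGER4, a prostaglandin E2 receptor (0.118), the noncoding RNA gene gas5 (0.197) and PITPNB, a phosphatidylinositol transfer protein (0.204). Of these PITPNB stood at 3.31 and 5.85 CPM, and PTGER4 at 3.5 and 6.3 CPM. None of the 6 is a member of the lists of mural genes.

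In the list of contractile and cytoskeletal genes of smooth muscle, 1 of 35 tested genes was called higher and 0 lower. Over all tested genes 1.14% were called higher and 0.88% lower, and 35 genes are too few to set against these shares. Vcla, which encodes vinculin of the attachment sites of actin filaments, rose from 35.5 ± 4.01 to 58.8 ± 6.24 CPM (SD, n = 4), a log2 fold change of 0.73 ± 0.122 (SE; edgeR adjusted p = 0.0179). Its pools held 39.8, 37.2, 30.5 and 34.4 CPM in wildtype and 49.97, 61.3, 64.5 and 59.2 CPM in mutants, without overlap, and with 1 pool left out the call was kept 5 of 8 times (highest adjusted p 0.0679, mutant replicate 3 left out). Actn1, an alpha-actinin that cross-links actin, was at 75.5 ± 10.6 and 108 ± 15.4 CPM and did not pass (0.0868). Over the list, 27 of 35 genes lay above 0 and the median was 0.22, against 50.4% positive among all tested genes. Many of these genes, such as vinculin, filamin and the nonmuscle myosins, are expressed by most cell types. Log2 fold changes over the list ran from -0.40 (mylkb) to 0.88 (smtna), and neither of these was called.

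**Figure D5:**
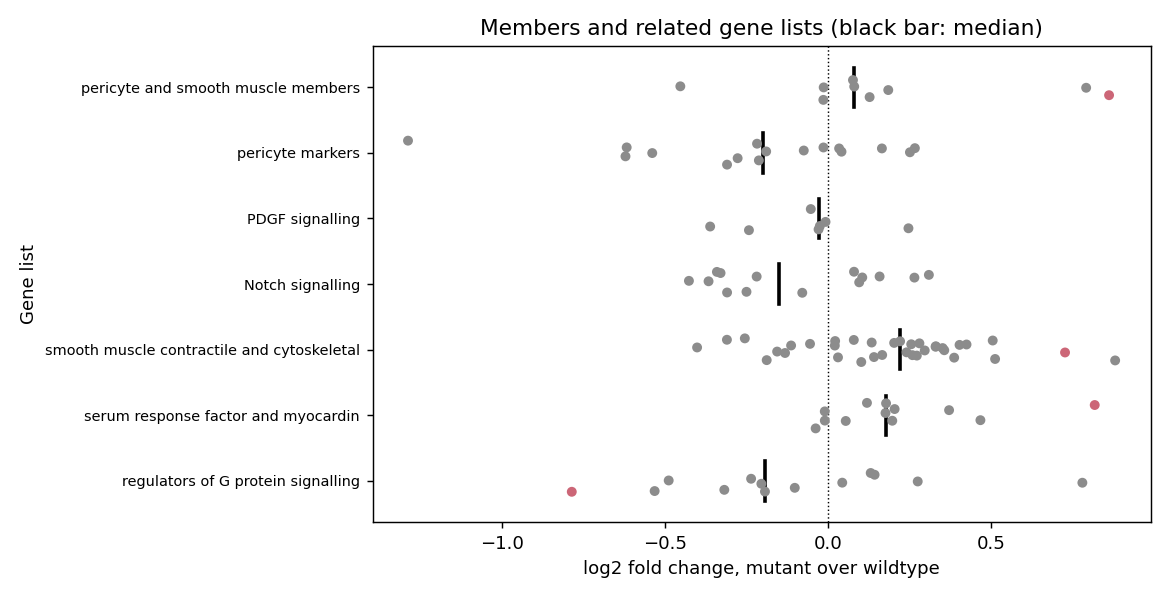
Log2 fold change (mutant over wildtype) of each tested gene, 1 point per gene, for the members and 6 related lists, with called genes in red and a black bar at each list's median. The medians run from -0.20 for pericyte markers to 0.22 for contractile and cytoskeletal genes, and red points are single genes in 4 of the 7 rows.

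The transcriptional regulators of the contractile genes held 1 called gene. Mef2ca, a transcription factor of heart and smooth muscle, rose from 107 ± 30.3 to 188 ± 15.6 CPM (SD, n = 4; edgeR adjusted p = 0.0494). It was the 1 call among 12 tested genes of the serum response factor and myocardin list, too few to set against the 2.02% called over all tested genes. With 1 pool left out the call was kept 1 of 8 times (highest adjusted p 0.112, mutant replicate 3 left out). The call was also lost with the trend on gene length removed (log2 fold change 0.78; adjusted p = 0.0611). The median of that list was 0.18. Myocardin itself was not among the tested genes of the list, since its name was not matched to a gene row. Its next gene was mef2aa (0.47 ± 0.118, SE; adjusted p = 0.0695), and serum response factor itself, srfa and srfb, had 0.18 ± 0.189 and 0.20 ± 0.144.

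Marker lists of the other cell types held 0 called genes each. Over all tested genes 2.02% were called, and lists of 6 to 16 genes are too small to set against this share. Median log2 fold changes were 0.08 for 16 fibroblast, -0.06 for 9 epicardium, 0.00 for 13 endothelium, 0.10 for 10 cardiomyocyte, -0.19 for 10 leukocyte, 0.53 for 6 erythrocyte, 0.41 for 7 outflow tract and -0.02 for 7 Schwann and neural crest genes. The endothelial genes kdrl and cdh5, which mark the vessels that mural cells cover, were at 354 ± 84 and 461 ± 46.8 CPM in wildtype and 341 ± 53.4 and 434 ± 83.1 CPM in mutant pools (SD, n = 4). Of the 10 mural markers themselves, 9 were detected in each pool, and cnn1a was the 1 that was not. The summed level of the 10, which includes the uncertain level of acta2, ran from 446 to 561 CPM in wildtype and from 468 to 556 CPM in mutant pools. The sum overlapped between genotypes, as did each tested member other than cspg4 and cnn1b.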

How the data were processed

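The deposited values are raw counts per gene, 1 column per pool, made by the authors with featureCounts 2.0.3 (exons summed by gene, strand setting 2, Ensembl 109 on GRCz11, per the file headers). Levels per kilobase used the exonic length deposited beside them. The submitters' processing notes also name STAR, fastp, FastQC and MultiQC. No sample column was left unused (0 columns).

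Members and lists were chosen with earlier results of these data known. Names were matched by symbol, then without the paralog suffix. Where rows shared a symbol, the row on the RefSeq (GRCz12tu) gene's chromosome was taken. The 10 members shared 8 to 12 named neighbours with RefSeq within 8 genes on either side. Of 230 other list entries 201 were matched; 1 list is not reported here.

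Genes were filtered with filterByExpr (minimum count 10), which left 17949. Levels are CPM with TMM factors; log2 levels used a prior count of 2. Genotypes were compared with edgeR 4.0.16 (R 4.3.3; quasi-likelihood, genotype only), with Benjamini-Hochberg adjustment over all tested genes and a threshold of 0.05; SE is the log2 fold change divided by the square root of F. The tests were also run on simulated counts drawn without a gene length trend or a pool that stood apart. That run cannot show how calls hold under either, and its outcome is not given here. Since a pool mixes 5 fish, p-values rest on variation between pools, not between fish. The rule for named genes took all members, each called list gene and the 2 smallest p of each list, and the 3 genes most like each of the 3 most variable tested members; of the lists of other cell types, only genes set beside a result are named. Other genes were chosen after their values were seen. Alternatives were other scaling, filters and tests (DESeq2 1.42.0, limma-voom 3.58.1), a replicate block, a length trend removed (lowess span 0.3) and each pool left out. Removing the length trend together with mutant replicate 4 was added after the data were seen.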

Additional observations from a re-analysis of the deposited data

How the results depend on the processing

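The direction of cspg4 and cnn1b was kept in all 18 alternatives each, and cspg4 was called in 11 and cnn1b in 6. The count of members called higher was 1 in the reported fit and 0 with library totals alone, 2 with no filter, 2 with DESeq2, 2 with limma-voom and 2 with the length trend removed, and it ran from 0 to 2 when single pools were left out. The count of members called lower was 0 in each alternative. Over all genes, 205 were called higher and 158 lower, against 60 and 97 with library totals alone and 619 and 488 with DESeq2, and from 29 to 273 higher and 37 to 200 lower with each pool left out. The cause of these differences was not tested. Removing the length trend together with mutant replicate 4 gave cspg4 a log2 fold change of 0.88 (adjusted p = 0.0166) and cnn1b 0.92 (0.0553).

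The labels do not say that replicate numbers pair the pools. Deviations of same-numbered pools correlated between -0.07 and 0.25, over 0.1 in 1 of 4 pairs. So few values cannot decide whether same-numbered pools shared a batch. With a replicate block, 126 genes were called higher and 84 lower, among the members 1, which was cnn1b (adjusted p = 0.0438) in place of cspg4 (0.0522). No sign changed for tagln, myh11a and mylka in 18 alternatives each, while the sign, never with a call, changed in 5 for pdgfrb, 6 for rgs5a, 1 for notch3 and 1 for acta2. The highest adjusted p of tagln was 0.544, without mutant replicate 3.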
